A study of Homo sapiens with 12 samples.

Results

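The genes described here encode Polycomb repressive complex 2 (PRC2), and they were chosen by name: the 10 genes EZH2, EZH1, EED, SUZ12, RBBP4, RBBP7, JARID2, MTF2, PHF19 and AEBP2, out of 43769 genes in the count table. Each name stood on 1 row of the table, and all 10 genes were among the 15828 that passed the filter on low counts. PRC2 is the enzyme complex that methylates H3K27, a histone mark of silenced developmental genes. EZH2 or its paralog EZH1 carries the catalytic site, EED reads the mark that the complex makes and holds the enzyme active, SUZ12 is the scaffold, and RBBP4 and RBBP7 are histone-binding proteins that also serve in other chromatin complexes. JARID2 and AEBP2 mark one form of the complex, and the Polycomb-like proteins MTF2 and PHF19 mark another. In neuroblastoma, a childhood tumor of the sympathetic nervous system, EZH2 is known for silencing differentiation genes in tumors with MYCN amplification. SWI/SNF, the remodeling complex that contains ARID1A, is a classical opponent of Polycomb silencing.

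RNA of a clonal line made from SK-N-DZ, a MYCN amplified neuroblastoma cell line with wild-type ARID1A, was sequenced in 12 libraries that form 4 groups of 3. The control group (C) received neither agent and the IFNγ group (I) received IFNγ for 24 h, and the labels give both as WT. The doxycycline group (D) and the group with both agents (DI) received doxycycline for 4 days, with IFNγ for the final 24 h in DI, and the labels give both as shARID1A. All 12 libraries carry the doxycycline-inducible hairpin against ARID1A, came from puromycin-selected cells, and represent 1 cell line. The labels name neither the clone nor a control hairpin. The effects of doxycycline and of the hairpin therefore cannot be told apart, and whether the values hold beyond this clone was not tested. The labels do not say that the 3 replicates of a group were separate cultures, and p-values then measure the spread between these samples, which may be technical.

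Total counts per library ran from 16469832 to 21790869, at which the 10 genes had between 349 and 8861 counts in each library. The targeted gene, ARID1A, had 197, 186 and 165 CPM (counts scaled to library size with TMM factors) for C, 197, 159 and 158 for D, 192, 203 and 194 for I, and 151, 133 and 148 for DI. One D library equalled the highest control library, whereas every DI library lay below every I library. The log2 fold change of ARID1A was −0.09 (SE 0.11, adjusted p = 0.788) in D vs C and −0.44 (SE 0.11, adjusted p = 0.115) in DI vs I by edgeR's quasi-likelihood test with Benjamini-Hochberg adjustment over all tested genes. The groups are therefore named by their labels. All 12 listed noradrenergic neuroblastoma markers were at or above a mean of 1 CPM, and their summed CPM overlapped between all groups (4978 to 6607 over all libraries). Single markers did separate. PHOX2A was higher in I (1081 to 1218 CPM) than in C (837 to 895), and higher in DI (1034 to 1197) than in D (806 to 920). HAND1 (224 to 265 against 296 to 336) and MYCN (879 to 1030 against 1081 to 1330) were lower in I than in C. GATA3 was higher in D (651 to 799) than in C (544 to 613), and HAND1 was higher in DI (273 to 323) than in I. Of 6 leukocyte and 5 epithelial markers none had a mean of 1 CPM, and CD3E was at 0 in every library. Of 10 mesenchymal markers 8 reached that level, led by FN1, and their summed CPM was 618 to 971 for C, 827 to 1377 for D, 2012 to 3507 for I and 1484 to 3004 for DI.

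Promoter sequences are shown first, because EZH2 is a textbook target of E2F, the transcription factor family of S-phase entry, and because IFNγ acts through the GAS and ISRE elements of its target genes. The windows of 250 bases before to 50 bases after each annotated start came from RefSeq (GRCh38.p14), where the 10 genes had 15 windows. The stretches below belong to EZH2 and MTF2, whose E2F letters lie beside the start, and to JARID2 and RBBP4, whose levels separated with doxycycline and whose windows had none of these letters. Each runs 5′ to 3′ on the strand of the gene and covers 70 bases before the start and 30 from it on, with the E2F letters in capitals.
EZH2, chr7:148884262-148884361, minus strand: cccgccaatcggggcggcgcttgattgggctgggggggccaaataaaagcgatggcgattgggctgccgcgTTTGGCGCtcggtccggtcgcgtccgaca
MTF2, chr1:93079213-93079312, plus strand: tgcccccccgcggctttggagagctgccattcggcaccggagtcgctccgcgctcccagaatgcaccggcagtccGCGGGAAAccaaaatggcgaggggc
JARID2, chr6:15245999-15246098, plus strand: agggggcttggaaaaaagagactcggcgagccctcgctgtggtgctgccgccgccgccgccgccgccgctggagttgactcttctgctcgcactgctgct
RBBP4, chr1:32651138-32651237, plus strand: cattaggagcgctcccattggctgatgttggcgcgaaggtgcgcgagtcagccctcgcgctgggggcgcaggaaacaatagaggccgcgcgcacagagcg

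E2F letters were searched as TTTGGCGC, TTTCCCGC, TTTGCCGC and TTTCGCGC on both strands, and they occurred in 6 of the 15 windows, 1 each for EZH2, EZH1, SUZ12, MTF2, PHF19 and AEBP2, beside 3.31% of all 35116 windows. In EZH2 the match began at base 2 after the start, and in MTF2 at base 6, read on the opposite strand. The core ISRE letters GAAANNGAA occurred in 0 of the 15 windows (8.11% of all windows), and the GAS letters TTCNNNGAA occurred in 1, that of EED (7.66%), at 2 places. The E-box CACGTG, the site bound by MYC proteins, occurred in 1 window, of RBBP4 (7.26%). A match of letters is a description of the window and does not show binding, and near matches were not counted. The RBBP4 stretch, for one, holds TTTGGCGC but for its first base.

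PRC2 mRNA was present in every library, with EZH2 and the histone-binding RBBP4 among the highest and EED, EZH1 and AEBP2 lowest. To compare genes, CPM was divided by the kilobases of exon of each gene (GENCODE 29, GRCh38), which gives CPM per kb. Over the 12 libraries RBBP4 had the highest mean level per kb (42.1), followed by EZH2 (39.2), JARID2 (31.0), RBBP7 (22.0), SUZ12 (19.4), MTF2 (14.1), PHF19 (8.77), AEBP2 (6.20), EZH1 (5.10) and EED (3.93). RBBP4 and EZH2 exchanged the top rank and each held it in 6 of 12 libraries. Among neighbors in this order, the ranges of SUZ12 and MTF2, of MTF2 and PHF19, and of PHF19 and AEBP2 were apart, and those of the other 6 pairs overlapped. Scaling by library size alone, without TMM, moved 4 of the 40 group levels by more than their SD. The order depended on which exons set the length. With the exons of the GENCODE basic transcripts alone, an alternative chosen after seeing the data, the level of RBBP7 was 2.71 times as high (59.7) and took rank 1, ahead of EZH2 (57.8) and RBBP4 (49.7). EED (7.59, 1.93 times as high) and EZH1 (7.67, 1.51 times as high) then ranked above AEBP2 (6.94), and the ranks of EZH2, SUZ12, MTF2 and PHF19 stayed as they were. A length is the same in every library, so fold changes between groups are not touched by it.

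**Figure D1:**
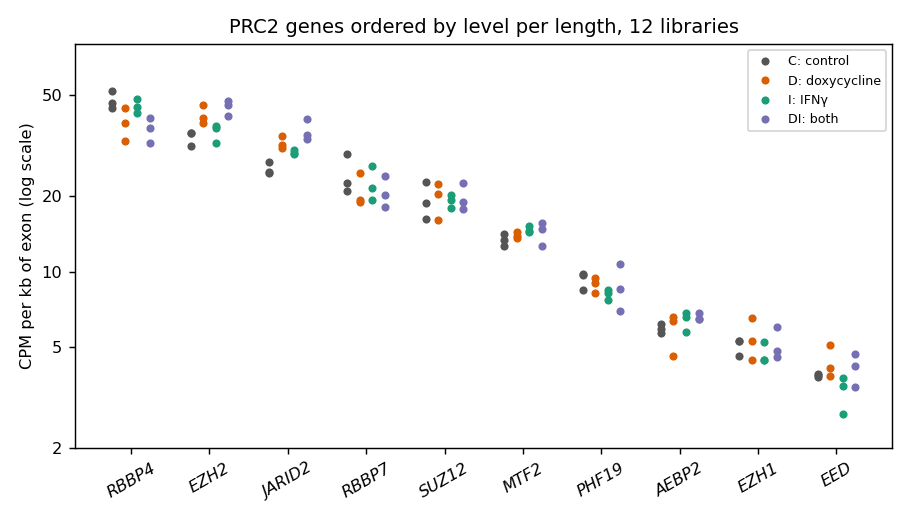
Level of each of the 10 PRC2 genes in CPM per kb of exon (log axis), with 1 point per library colored by group (3 libraries each) and the genes ordered by their mean over the 12 libraries. RBBP4 and EZH2 overlap at the top, between 31.6 and 52.0, and EED lies lowest with the exons of all annotated transcripts, between 2.71 and 5.11.

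Some rows could share reads with near copies or with overlapping genes. SUZ12P1, an unprocessed pseudogene of SUZ12 that is transcribed, had 929 to 1309 counts per library, equal to 45.2% of the counts of SUZ12 over all libraries, so the level of SUZ12 is uncertain if reads of the copies were split. The log2 fold change of SUZ12P1 was 0.03 (SE 0.094, adjusted p = 0.879, edgeR) for doxycycline averaged over both IFNγ arms. RBBP4P1 had 1.6% of the counts of RBBP4, and EZH2P1 and EEDP1 had 0 counts. On the opposite strand, TXLNG covers 2.42% of the exon bases of RBBP7 and SYNC covers 18.01% of those of RBBP4. Rounded down to whole counts, TXLNG had a mean of 1167 and SYNC a mean of 0. Whether the counting used strand is not given in the sources used here.

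In TMM-scaled CPM, doxycycline separated 3 of the 10 genes in the same direction with and without IFNγ: EZH2 and JARID2 were higher and RBBP4 was lower. Such a double separation was seen in 9.14% of all tested genes. Taking the comparisons one by one, 3 of the 10 did not overlap in D vs C (19.2% of all tested genes) and the same 3 did not overlap in DI vs I (16.6%). The separation of RBBP4 depended on the scaling, since with library size alone its groups overlapped in both comparisons. With the edgeR test, 0 of the 10 genes were called (adjusted p under 0.05) in D vs C, where 1.23% of all genes were called, and 0 in DI vs I (0.67% of all genes). An unadjusted p under 0.05 was found for these 3 genes in D vs C (14.2% of all genes) and for the same 3 in DI vs I (12.2%). Averaged over both IFNγ arms, which compares 6 libraries with 6, EZH2 and JARID2 rose, and so 2 of 10 genes were called beside 7.68% of all genes (3.66% of all genes were called higher). In bulk RNA, fewer cells of a type and less RNA per cell cannot be told apart. Their median log2 fold change, averaged over the arms, was 0.03, beside −0.002 over all tested genes.

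EZH2 (ENSG00000106462, chr7:148807383-148884321, minus strand, protein coding), the main methyltransferase of dividing cells, had 160, 161 and 143 CPM in C and 184, 175 and 208 CPM in D. With IFNγ it had 169, 171 and 147 CPM in I and 187, 207 and 215 CPM in DI. All 6 libraries with doxycycline lay above all 6 without it, and the third replicate was lowest without and highest with the drug. The shares of all tested genes apart in this way, or with 6 same-numbered pairs of one sign, were not computed. The log2 fold change of EZH2 was 0.29 (SE 0.10, adjusted p = 0.224) in D vs C, 0.32 (SE 0.10, adjusted p = 0.221) in DI vs I, and 0.31 (SE 0.073, adjusted p = 0.0303) averaged over both arms by edgeR, the last equal to 1.24-fold (95% interval 1.11 to 1.38). EZH2 was higher in 6 of 6 same-numbered pairs. This call was lost without any 1 of the libraries C 1, C 3, D 1, D 3, I 1, I 3 and DI 3 (adjusted p = 0.0566, 0.0793, 0.0585, 0.0631, 0.0535, 0.0717 and 0.0768 by edgeR), and with no filter on low counts (0.0675). Without replicate 3 of every group the log2 fold change was 0.19 (adjusted p = 0.259, edgeR).

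JARID2 (ENSG00000008083, chr6:15246296-15522040, plus strand), a DNA-binding cofactor that helps bring the complex to its targets, had 164, 150 and 148 CPM in C and 192, 186 and 207 CPM in D. In the IFNγ arm it had 182, 176 and 177 CPM in I and 202, 209 and 243 CPM in DI. Here too each library with doxycycline lay above all without it. The log2 fold change was 0.34 (SE 0.092, adjusted p = 0.115) in D vs C, 0.29 (SE 0.092, adjusted p = 0.221) in DI vs I, and 0.32 (SE 0.065, adjusted p = 0.0175) averaged over both arms by edgeR, the last equal to 1.24-fold (95% interval 1.13 to 1.37). JARID2 was higher in 6 of 6 same-numbered pairs, by 0.22, 0.32 and 0.49 log2 units for numbers 1, 2 and 3 in D vs C and by 0.15, 0.25 and 0.45 in DI vs I. The averaged call was lost without the library C 3 (adjusted p = 0.0508, edgeR) and without replicate 1, 2 or 3 of every group (0.193, 0.0612 and 0.175).

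RBBP4 (ENSG00000162521, chr1:32651142-32686211, plus strand), the WD-repeat histone chaperone that PRC2 shares with deacetylase and chromatin assembly complexes, had 422, 440 and 493 CPM in C and 368, 314 and 421 CPM in D. It had 425, 402 and 460 CPM in I and 353, 306 and 387 CPM in DI. The libraries with doxycycline lay below those without it in each arm, although the highest D library came within 1 CPM of the lowest C library. The log2 fold change was −0.30 (SE 0.13, adjusted p = 0.324) in D vs C, −0.30 (SE 0.13, adjusted p = 0.383) in DI vs I, and −0.30 (SE 0.090, adjusted p = 0.0725) averaged over both arms by edgeR, and none of these passed the test. RBBP4 was lower in 6 of 6 same-numbered pairs. Without the library D 3 the averaged value passed (adjusted p = 0.0490, edgeR). With library size alone, without TMM, the averaged value was −0.21 (SE 0.087, adjusted p = 0.155, edgeR), and the groups overlapped in each arm.

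**Figure D2:**
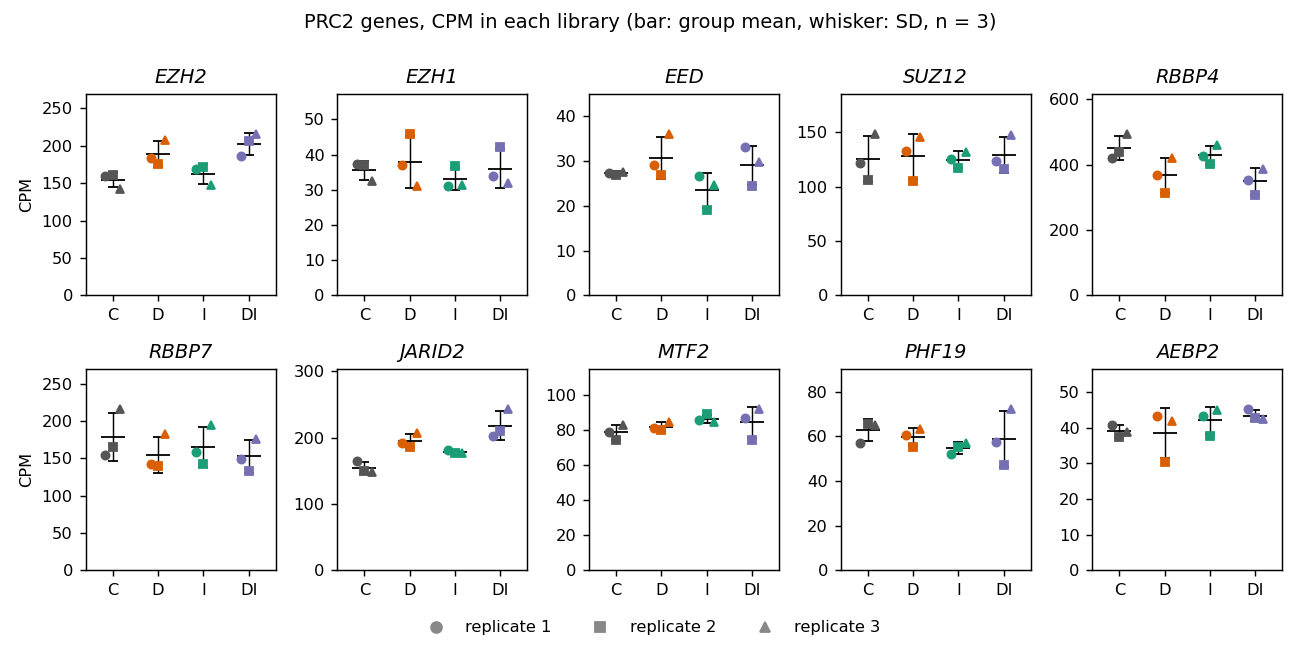
CPM of the 10 PRC2 genes in each of the 12 libraries (linear axis from 0), with the replicate number as the marker shape, the group mean as a bar and the SD over 3 libraries as whiskers. EZH2 and JARID2 sit higher and RBBP4 sits lower in D than in C and in DI than in I, without overlap, and the groups of the other 7 genes overlap in both comparisons.

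The replicate numbers paired the libraries, since same-numbered libraries of different groups deviated together from their group means, and the numbers were therefore also fitted as a block. With the block, the members called were JARID2 (adjusted p = 0.0187) and RBBP4 (0.0210) in D vs C, where 13.9% of all genes were called, and RBBP4 (0.0264) and JARID2 (0.0432) in DI vs I (10.5% of all genes), both by edgeR. EZH2 then had an adjusted p of 0.0692 and 0.0580 in these comparisons (edgeR). Averaged over both arms, RBBP4 (adjusted p = 0.00186), JARID2 (0.00242), EZH2 (0.00778) and RBBP7 (0.0312) were called with the block by edgeR, 4 of 10 beside 29% of all genes. DESeq2 called JARID2 in D vs C (adjusted p = 0.0294, beside 4.75% of its genes), and EZH2, JARID2 and RBBP4 in the averaged comparison (adjusted p = 0.00405, 0.000542 and 0.0328, beside 12.7%).

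**Figure D3:**
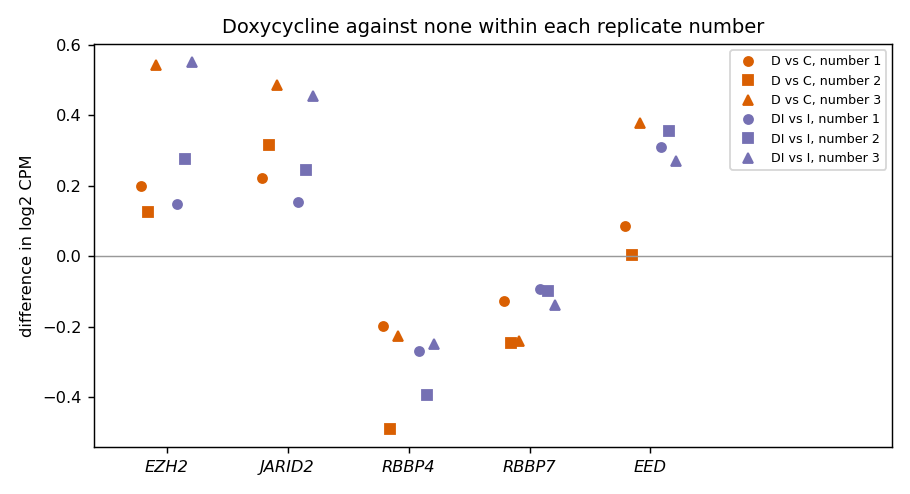
Difference in log2 CPM between the libraries with and without doxycycline that carry the same replicate number, for EZH2, JARID2, RBBP4, RBBP7 and EED, with D vs C in orange, DI vs I in purple and the number as the marker shape. All 6 differences are above 0 for EZH2, JARID2 and EED and below 0 for RBBP4 and RBBP7, and those of EZH2 run from 0.13 to 0.55.

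EED and RBBP7 each had differences of one sign in all same-numbered pairs, a trait whose share of all tested genes was not computed. Neither was called without the block, with which RBBP7 was called in the averaged comparison. EED had 27.4, 26.8 and 27.6 CPM for C, 29.0, 26.9 and 35.8 for D, 26.6, 19.0 and 24.6 for I and 33.0, 24.4 and 29.6 for DI. Its log2 fold change was 0.17 (SE 0.16) in D vs C, 0.31 (SE 0.16) in DI vs I and 0.24 (SE 0.12, adjusted p = 0.249, edgeR) averaged over both arms, and the groups overlapped in both comparisons. The value in D vs C was 0.037 without the library D 3, and that in DI vs I was 0.18 without I 2. RBBP7, the X-linked paralog of RBBP4, had 155, 166 and 216 CPM for C, 142, 140 and 183 for D, 158, 143 and 194 for I and 149, 133 and 177 for DI. Its log2 fold change was −0.21 (SE 0.17) in D vs C, −0.11 (SE 0.17) in DI vs I and −0.16 (SE 0.12, adjusted p = 0.479, edgeR) averaged over both arms, with overlapping groups. Without the library C 3 it was −0.053 in D vs C and −0.083 averaged, and without I 3 it was 0.037 in DI vs I. For RBBP7 the third replicate was the highest library of every group, so the spread between numbers was larger than the differences between groups.

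The other 5 genes, namely the second catalytic subunit EZH1, the scaffold SUZ12, the Polycomb-like proteins MTF2 and PHF19, and AEBP2, had averaged log2 fold changes of 0.11 (SE 0.11), 0.04 (SE 0.11), 0.01 (SE 0.066), 0.02 (SE 0.10) and 0.01 (SE 0.096), in this order. Their adjusted p-values were 0.617 or more (edgeR), and the 95% intervals of the fold ran from 0.907 to 1.28 for EZH1, 0.870 to 1.21 for SUZ12, 0.912 to 1.11 for MTF2, 0.869 to 1.18 for PHF19 and 0.872 to 1.17 for AEBP2. EZH1 ranged from 31.0 to 45.7 CPM and was highest in the second replicate of D, I and DI. SUZ12 ranged from 105 to 148 CPM, with the second replicate lowest in every group and the third highest. The direction of the values nearest 0 changed with the scaling: with library size alone PHF19 and AEBP2 turned positive in D vs C (0.02 and 0.07) and MTF2 in DI vs I (0.06).

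**Figure D4:**
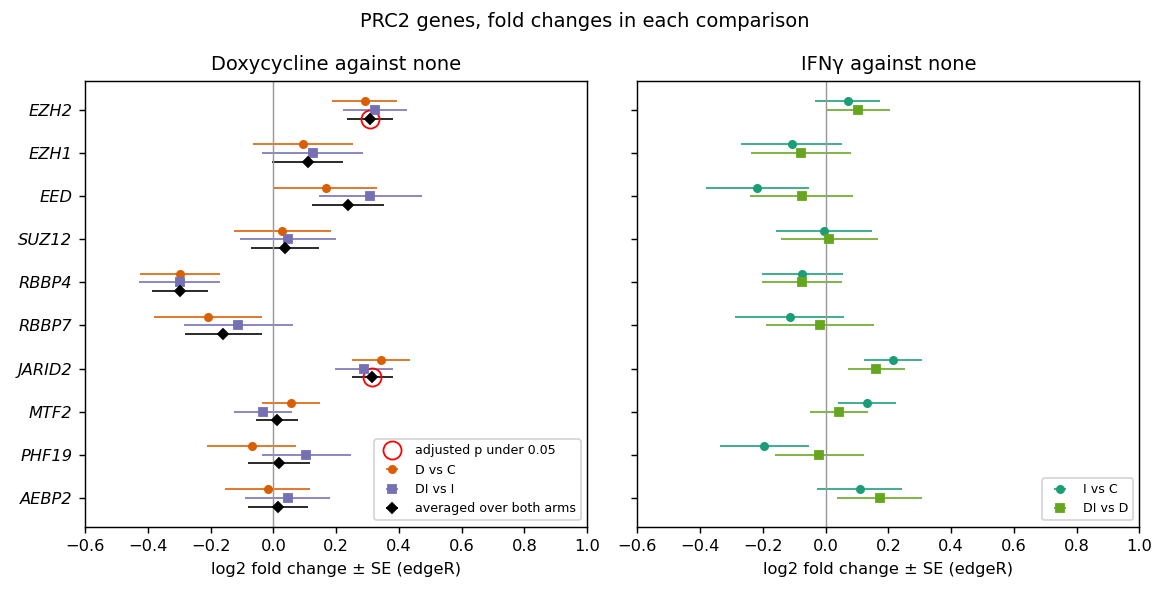
Log2 fold change with its SE (edgeR) of the 10 PRC2 genes, for doxycycline in the left panel (D vs C, DI vs I and both arms averaged) and for IFNγ in the right panel (I vs C and DI vs D). A red ring marks an adjusted p under 0.05, which is seen for the averaged values of EZH2 (0.31) and JARID2 (0.32).

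IFNγ called none of the 10 genes. In I vs C 0 of 10 passed the edgeR test, beside 2.21% of all genes, and 1 of 10 had an unadjusted p under 0.05, beside 8% of all genes. That gene was JARID2, at 182, 176 and 177 CPM in I against 164, 150 and 148 in C, a log2 fold change of 0.21 (SE 0.092, adjusted p = 0.557, edgeR). The groups did not overlap for 3 of the 10 genes (15.1% of all tested genes), with JARID2 and MTF2 higher and EED lower in I. MTF2 had a log2 fold change of 0.13 (SE 0.093) and EED of −0.22 (SE 0.16), and EZH2, whose groups overlapped, of 0.07 (SE 0.10). In DI vs D 0 of 10 passed (1.72% of all genes), 0 had an unadjusted p under 0.05 (6.24%), and all 10 overlapped (9.55% of all genes did not overlap). There JARID2 had a log2 fold change of 0.16 (SE 0.092) and EZH2 of 0.10 (SE 0.10). Same-numbered pairs showed JARID2, EZH2 and AEBP2 higher with IFNγ in 6 of 6, JARID2 by 0.15, 0.24 and 0.26 log2 units in I vs C and by 0.079, 0.17 and 0.23 in DI vs D. The share of all tested genes with such pairs was not computed. With the block JARID2 had adjusted p = 0.170 in I vs C and 0.390 in DI vs D (edgeR). The summed mesenchymal markers had no overlap between I and C or between DI and D, and FN1 carried that sum, with 379 to 621 CPM in C and 1786 to 3330 in I. Other listed mesenchymal markers overlapped between I and C, among them VIM, YAP1, CD44, COL3A1 and TWIST1, and the part of FN1 in the PRC2 values was not tested.

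Whether doxycycline acted differently with and without IFNγ was tested as an interaction. By edgeR 0 of the 10 genes were called, as were 0 of all genes (0%), with 99 of all genes and 0 of the 10 at an unadjusted p under 0.05, and DESeq2 called 1 gene of all. The interaction was 0.03 (95% interval −0.29 to 0.35) for EZH2, −0.05 (−0.34 to 0.23) for JARID2 and −0.002 (−0.40 to 0.40) for RBBP4 on the log2 scale. These intervals include differences as large as the doxycycline values themselves. D vs C and DI vs I share no library, while D vs C shares its control libraries with I vs C. Same-numbered D and DI libraries still correlated at 0.661 to 0.804 in their deviations from the group means. The 2 doxycycline comparisons may therefore not be independent repeats.

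The balance between pairs of subunits, 3 pairs of paralogs and the partners JARID2 and AEBP2, was described as a ratio of levels per kb (all annotated transcripts) in each library, whose size, though not its relative change, depends on the exon lengths used. EZH2 to EZH1 was 6.71 ± 0.082 (SD, n = 3) for C, 7.97 ± 2.21 for D, 7.62 ± 0.67 for I and 8.84 ± 1.44 for DI. The 3 control libraries lay close together (6.65 to 6.81), and the D libraries spread on both sides of them (5.92 to 10.3). RBBP4 to RBBP7 was 1.99 ± 0.18 for C, 1.86 ± 0.14 for D, 2.05 ± 0.18 for I and 1.79 ± 0.073 for DI, with overlap in both arms. JARID2 to AEBP2, which join the same form of PRC2, was 4.31 ± 0.14 for C, 5.65 ± 0.96 for D, 4.66 ± 0.40 for I and 5.50 ± 0.69 for DI. Its D libraries lay above those of C (lowest 4.83 against highest 4.41), and the DI and I libraries overlapped. MTF2 to PHF19, the Polycomb-like pair, was 1.44 ± 0.14 for C, 1.57 ± 0.065 for D, 1.80 ± 0.10 for I and 1.66 ± 0.18 for DI. The I libraries lay above those of C for this ratio (lowest 1.69 against highest 1.58) and for EZH2 to EZH1 (7.21 against 6.81). How often ratios of other genes separate was not computed.

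Across the 12 libraries the log2 CPM of JARID2 followed that of EZH2 (Pearson r = 0.894), and RBBP4 ran against it (r = −0.639). The other 7 genes had r between −0.417 and 0.375. Among 10145 genes with a mean of at least 10 CPM, those most like EZH2 included SH3BP2 (r = 0.924), CC2D1B (0.919) and CARS1 (0.914). These correlations are descriptions over 12 libraries that share 4 groups, replicate numbers and scaling, so genes that differ between the groups correlate for that reason alone.

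The genes that work with PRC2 were described from fixed lists, in each case for doxycycline averaged over both arms and with edgeR's adjusted p unless another comparison is named. Genes called in the averaged comparison are named after their values were seen. The share of all tested genes called there was 7.68% (3.66% called higher), and 29% with the replicate block, and the counts below stand beside these shares. The 16 list genes called kept their calls with the block, and in 3 to 13 of the 15 fits that left out a library or a replicate number. With no filter on low counts the calls of PCGF3, PHC1, FOXK1, CHD3, MTA1, CHAF1A, E2F7, CCNA2 and NSD2 were lost (adjusted p = 0.0574 to 0.119, edgeR). With library size alone those of MTA1 (0.182) and CCNA2 (0.0776) were lost, and MTA1 also lost its call with DESeq2 size factors (0.0501). PRC1 ubiquitinates histone H2A, and some of its forms bind the PRC2 mark. All 24 listed PRC1 genes were tested, with 4 called higher and 0 lower. Their median log2 fold change was 0.21, beside −0.002 for all tested genes. With the block 10 were called higher and 1 lower. The 4 called without the block included the RING partner PCGF1 (0.48, adjusted p = 0.0141), the polyhomeotic PHC1 (0.37, 0.0364) and PCGF3 (0.27, 0.0236). The PRC1 genes with the highest CPM, CBX2 and BCOR, had log2 fold changes of 0.20 (SE 0.088, adjusted p = 0.211) and 0.19 (SE 0.11, adjusted p = 0.366). None of the 24 was called in D vs C (median 0.22, beside 1.23% of all genes called) or DI vs I (median 0.20, beside 0.67%). With the block 3 were called higher and 1 lower in D vs C, beside 13.9% of all genes. In DI vs I the block called 3 higher, beside 10.5% of all genes.

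Of the other PRC2 accessory subunits 4 of 5 were tested and 0 were called, with LCOR at 0.10 (SE 0.097) and PHF1, the third Polycomb-like protein, at 0.01 (SE 0.14). EZHIP, an inhibitor of the complex, had a mean of 0.0166 CPM and was not tested. Both H3K27 demethylases were tested, and neither KDM6B (0.23, SE 0.24) nor KDM6A (0.19, SE 0.091) was called. The deubiquitinase PR-DUB, which removes the PRC1 mark, had 6 tested genes with 1 called higher, FOXK1 (0.35, adjusted p = 0.0345), while ASXL1 was at 0.08 (SE 0.062) and FOXK2 at 0.09 (SE 0.085). The block also called ASXL3 (0.59, adjusted p = 0.000361) and ASXL2 (0.22, 0.0303) higher.

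The list for complexes that share RBBP4 and RBBP7 with PRC2 covered NuRD, SIN3, CAF-1 and HAT1, and also held BPTF, which belongs to none of these. Its 23 tested genes had a median of 0.06, with 2 called higher and 1 lower. The remodeling ATPase CHD3 (0.46, adjusted p = 0.0476) and the assembly factor CHAF1A (0.24, 0.0317) rose and the NuRD subunit MTA1 (−0.25, 0.0484) fell, while the deacetylase HDAC2, highest by CPM, was at 0.11 (SE 0.11). With the block 5 were called higher and 4 lower. With IFNγ 1 gene of this list was called in both comparisons (beside 2.21% and 1.72% of all genes), and it is named after its values were seen. That gene was CHD5, a neuronal NuRD helicase, which had 0.182 ± 0.220 CPM (SD, n = 3) in C and 0.339 ± 0.311 in D, against 11.9 ± 4.37 in I and 9.98 ± 2.89 in DI (adjusted p = 0.00140 for I vs C and 0.00457 for DI vs D, edgeR). In C and D it lay near the level of 3 counts (0.143 to 0.187 CPM), and it passed the filter through I and DI. The size of its change is therefore uncertain.

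The E2F and RB family had 13 tested genes, with 1 called higher, E2F7 (0.55, adjusted p = 0.0493), and 1 lower, E2F5 (−0.75, adjusted p = 0.00830). Its members highest by CPM, E2F1 and TFDP1, were at 0.12 (SE 0.093) and 0.02 (SE 0.11), and with the block 6 genes were called higher and 1 lower. Of 20 proliferation genes 0 were called higher and 2 lower, the mitotic cyclins CCNB2 (−0.48, adjusted p = 0.00689) and CCNA2 (−0.34, 0.0386). TOP2A was at −0.11 (SE 0.066) and MCM7 at 0.12 (SE 0.057), and the median of the list was −0.10. With the block 3 proliferation genes were called higher and 9 lower. The 6 PRC2 genes with E2F letters in a window were EZH2 at 0.31 and 5 genes between 0.01 and 0.11.

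Genes that PRC2 is known to silence were mostly at or near 0. Of 39 HOX genes, the classical Polycomb targets, 9 passed the filter, and HOXD9, HOXD8 and HOXC4 were highest with means of 55.9, 34.7 and 27.9 CPM. None of the 9 was called, with HOXD9 at −0.12 (SE 0.28) and HOXD8 at −0.22 (SE 0.24), and the block called HOXC6 lower (−0.66, adjusted p = 0.0380). Of 4 genes described as silenced by EZH2 in neuroblastoma 3 were tested and 0 called. The chaperone CLU had 114 ± 13.4 CPM (SD, n = 3) for C, 93.0 ± 10.1 for D, 153 ± 21.6 for I and 125 ± 14.4 for DI, with a log2 fold change of −0.29 (SE 0.098, adjusted p = 0.0985). With the block CLU was called lower with doxycycline (adjusted p = 0.00149 averaged, 0.0168 in D vs C, 0.0233 in DI vs I) and higher with IFNγ (0.00291 in I vs C, 0.00321 in DI vs D). The neurotrophin receptor NGFR had 2.21 ± 0.65 CPM (SD, n = 3) for C, 3.25 ± 1.89 for D, 1.28 ± 0.18 for I and 2.40 ± 0.95 for DI, with a log2 fold change of 0.73 (SE 0.31, adjusted p = 0.180). The transcription factor CASZ1, with a mean of 4.08 CPM, was at 0.13 (SE 0.50), and RUNX3 had a mean of 0.00427 CPM and was not tested.

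Other histone lysine methyltransferases had 10 tested genes, and 4 were called higher and 0 lower, with a median of 0.23. The H3K4 methyltransferase KMT2D was the one listed gene called in D vs C (log2 fold change 1.14, SE 0.23, adjusted p = 0.0423), with 105 ± 26.8 CPM (SD, n = 3) in C and 230.0 ± 65.6 in D, and it had 111 ± 10.3 in I and 152 ± 24.2 in DI. Averaged over both arms KMT2D (0.80, adjusted p = 0.0158), KMT2A (0.69, 0.0419), KMT2C (0.61, 0.0253) and NSD2 (0.28, 0.0467) rose, and NSD3 was at 0.17 (SE 0.083). With the block 7 were called higher and 0 lower. The call of KMT2D in D vs C, where 1.23% of all genes were called, was kept in 1 of the 15 fits that left out a library or a number.

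**Figure D5:**
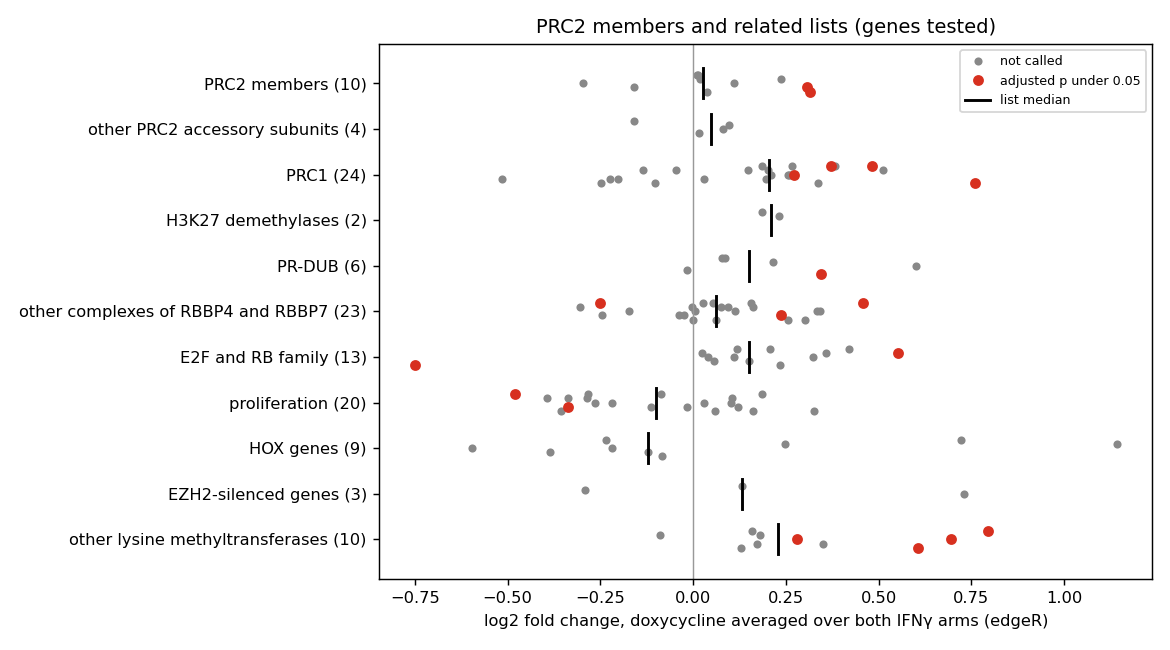
Log2 fold change for doxycycline averaged over both IFNγ arms (edgeR), with 1 point per tested gene of the PRC2 members and of each list, red where the adjusted p was under 0.05, and a black bar at the median of the list. PRC2 members have 2 called genes and a median of 0.03, PRC1 has 4 and a median of 0.21, and the proliferation genes have 2, both below 0.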

How the data were processed

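Whole-number counts per gene were made and deposited by the authors for RNA-seq libraries (paired-end reads). The aligner, counter, strand setting and build are not given in the sources used here, and all 43769 gene identifiers occur in GENCODE 29, which supplied positions and exon lengths. The submitters' processing notes name DESeq2. Tables of the authors' own comparisons (fold changes, p-values) and 18 per-library columns that the labels do not explain were not used.

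Counts were scaled by TMM, filtered with filterByExpr (minimum count 10) and fitted by quasi-likelihood over all 12 libraries with the 4 groups as the design (edgeR 4.0.16, limma 3.58.1, R 4.3.3). Tests were two-sided, adjusted by Benjamini-Hochberg over 15828 genes, and called under 0.05. The average over both IFNγ arms and the interaction were contrasts of the same model. DESeq2 1.42.0 was an alternative, as were other scalings and filters, the groups compared alone, a stricter threshold of 0.01, exon lengths from GENCODE basic transcripts (added after seeing the data), and leaving out each library or replicate number. The script was tested on simulated data. SDs cover 3 libraries. Standard errors and intervals cover counting error and the spread between libraries, and PCR copies could not be told apart. Sequences and motif shares were read in Python 3.11.15.

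Same-numbered libraries of different groups correlated at 0.338 to 0.804 in their deviations from the group means (18 pairs) and other libraries at −0.628 to 0.143 (36 pairs). No label calls these numbers a batch, and the main model leaves them out. Replicates differed by more than counting noise (chi-square per gene 18.6 to 82.2 over 12 pairs).

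The 10 members and the lists were chosen with earlier results of these data known. Named genes were all members and, from each list, up to 4 genes called in D vs C or DI vs I and, where fewer than 2 were called, the 2 with the highest mean CPM. Likeness to EZH2 was ranked by Pearson r, and the rule took the 5 highest. Some genes that these rules select are not reported here. Protein sequences were not used here.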

Additional observations from a re-analysis of the deposited data

How the results depend on the processing

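The direction of EZH2, JARID2 and RBBP4 was the same without and with IFNγ and in the averaged comparison in all alternatives run, and calls depended on the model. With the replicate block, 2 members and 13.9% of all genes were called in D vs C, 2 (10.5%) in DI vs I, 4 and 29% in the averaged comparison, and 6.02% of genes in I vs C and 4.46% in DI vs D. Members changed by the block were JARID2, RBBP4 and RBBP7, and no other member call changed with it in the 6 comparisons. Among list genes it kept the 16 averaged calls and added others, given beside each list. DESeq2 called 1 member and 4.75% of genes in D vs C, 3.13% in DI vs I, 12.7% averaged, and 0.00377% (1 gene) for the interaction. Library size alone called 1 member in D vs C (JARID2, adjusted p = 0.0416 by edgeR). It raised the share of higher calls from 40.2% to 69.1% in D vs C, from 15.1% to 45.4% in DI vs I and from 47.6% to 74.4% averaged. With no filter, 0.447% of genes were called in D vs C, 0.316% in DI vs I, 1.33% in I vs C, 1.06% in DI vs D, and 1 member and 2.83% averaged. Fits of only the groups compared called 0.108% (D vs C) and 0% (DI vs I). An adjusted p under 0.01 left 0.202%, 0.190% and 1.92% in D vs C, DI vs I and averaged, with 0 members in the last. The cause of these changes was not tested.

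Without TMM, the levels per kb that moved by more than their SD were EED in C (3.82), JARID2 in I (28.3), and MTF2 in D (14.5) and I (14.0). Signs reversed with library size alone for PHF19 (0.018) and AEBP2 (0.067), both in D vs C, and for MTF2 (0.059) in DI vs I. Exon lengths from GENCODE basic transcripts, added after seeing the data, changed the order of levels per kb as given in the report. The interaction of RBBP4 turned positive with library size alone (0.0028), DESeq2 (0.00043), no filter (0.0096) and the block (0.0012).

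Leaving out each library or number in turn (15 fits) called 0% to 1.21% of genes in D vs C, 0% to 0.594% in DI vs I, 0.796% to 2.25% in I vs C, 0.614% to 1.72% in DI vs D and 0.445% to 8.42% averaged, the lowest without replicate 1 each time. Members called averaged 0 to 2, and EZH2 kept its call in 5 of 15 fits, JARID2 in 11. Log2 fold changes reversed in some of these fits. In D vs C the ranges were −0.11 to 0.13 (AEBP2), −0.063 to 0.22 (EZH1), −0.15 to 0.0034 (PHF19) and −0.089 to 0.16 (SUZ12). In DI vs I they were −0.026 to 0.13 (AEBP2), −0.0072 to 0.21 (EZH1), −0.10 to 0.077 (MTF2), −0.069 to 0.25 (PHF19), −0.23 to 0.037 (RBBP7) and −0.062 to 0.12 (SUZ12). Averaged they were −0.034 to 0.086 (AEBP2), −0.023 to 0.051 (MTF2), −0.070 to 0.13 (PHF19) and −0.017 to 0.10 (SUZ12), and for the interaction −0.018 to 0.11 (EZH2) and −0.10 to 0.11 (RBBP4). Of the 21 member values in other comparisons that are not printed, 40 of 455 refits reversed and 0 changed a call. With 3 libraries a group, no member passed edgeR with TMM and no block in D vs C or DI vs I.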
